A study of Mus musculus with 12 samples.

Results

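Steady-state RNA of Cnot6l knockout hepatocytes was set against that of wild-type hepatocytes, with 3 arrays of each genotype. The 6 arrays were those titled as inputs, out of 12 arrays in the series. The remaining 6 held RNA precipitated with an anti-CNOT6L antibody from hepatocytes with the same genotype and replicate labels. Knockout and wild-type inputs that carried the same replicate number, 1, 2 or 3, were compared as pairs. The mice were male C57BL/6J animals aged 8 weeks, and no treatment is given in the labels. Hepatocytes, the parenchymal cells of the liver, were isolated from them, and total RNA was labelled as cRNA from 10 micrograms. The labels call the replicates biological but do not say that each came from its own animal. The p-values set the knockout minus wild-type difference against its variation over the 3 pairs, which the fit draws toward a value common to all genes. They need not carry the spread between animals. The knockout allele, its deleted part and any time in culture were not given in the sources used here.

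CNOT6L is a deadenylase of the CCR4-NOT complex. The complex shortens the poly(A) tails of mRNAs, and an mRNA with a short tail is then decapped and degraded. Its deadenylases come in closely related pairs, CNOT6 with CNOT6L and CNOT7 with CNOT8, and adaptor proteins that bind AU-rich elements or other sequences bring the complex to chosen mRNAs. The liver makes most plasma proteins and carries out gluconeogenesis, urea synthesis, lipid handling and drug metabolism. Freshly isolated hepatocytes lose part of this programme once they leave the tissue. The input arrays measure RNA levels, not the rate at which any mRNA was made or degraded.

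The deposited values had 1 probe set per gene, 15780 of them with a gene name. A test was made for the 9497 genes whose mean over the inputs was at least 5.44 log2 units, the 40th percentile over every probe set. Levels are array signals in log2 units, and a difference of 1 is a 2-fold difference. The array medians lay between 6.31 and 6.45. Of 13 hepatocyte markers on the array 11 lay above the array median. Albumin (Alb) lay between 14.72 and 15.12, apolipoprotein A-I (Apoa1) between 13.83 and 14.14 and transthyretin (Ttr) between 13.48 and 13.78. The gluconeogenic genes G6pc and Pck1 averaged 5.51 and 3.36, the latter below the 10th percentile of the arrays and not tested. The Kupffer cell marker Clec4f was at 4.85 to 5.48. All 8 neutrophil markers, all 11 markers of T, NK and B cells and 13 of the 14 macrophage markers lay below the array median. The remaining macrophage marker averaged 11.83. Of 14 sinusoidal endothelial markers 10 lay below it, as did 10 of 14 stellate cell and fibroblast markers and 4 of 7 cholangiocyte markers. The highest marker of these lists averaged 7.09, 9.13 and 9.42, so RNA of other cell types was not absent from the signal. Xist, which is expressed from an inactive X chromosome, lay at 3.25 to 3.55 and Eif2s3y, a Y-linked gene, at 7.69 to 8.89, as the male label implies.

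Cnot6l itself was at 8.44, 9.51 and 9.11 in wild-type inputs 1, 2 and 3 and at 9.12, 9.23 and 9.34 in the knockout inputs. The knockout was higher in pairs 1 and 3 and lower in pair 2, and the groups overlapped. The fitted difference was 0.21 ± 0.19 (SE; 95% interval -0.25 to 0.67; adjusted p = 0.830), and the two-sided exact permutation p was 0.7, where 3 against 3 arrays cannot give a p below 0.1. Without pair 1 the difference was -0.023. The probe set therefore gave no lower signal in the arrays labelled knockout. The position of its probes relative to the deletion is unknown, and it therefore checks nothing about the labels. Every direction below rests on the genotype labels.

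Replicate number separated the 6 arrays far more than genotype did. Arrays of the same number and different genotype correlated across genes with a Pearson r of 0.983 to 0.989 and differed by more than 2-fold in 58 to 138 genes. Arrays of the same genotype and different number correlated at 0.860 to 0.956 and differed by more than 2-fold in 592 to 2387 genes. The first principal component, with 66.6% of the variance, set number 3 apart from numbers 1 and 2, and the second, with 24.9%, set number 1 apart from number 2. Genotype separated the arrays on neither component. The third component held 3.55%.

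**Figure D1:**
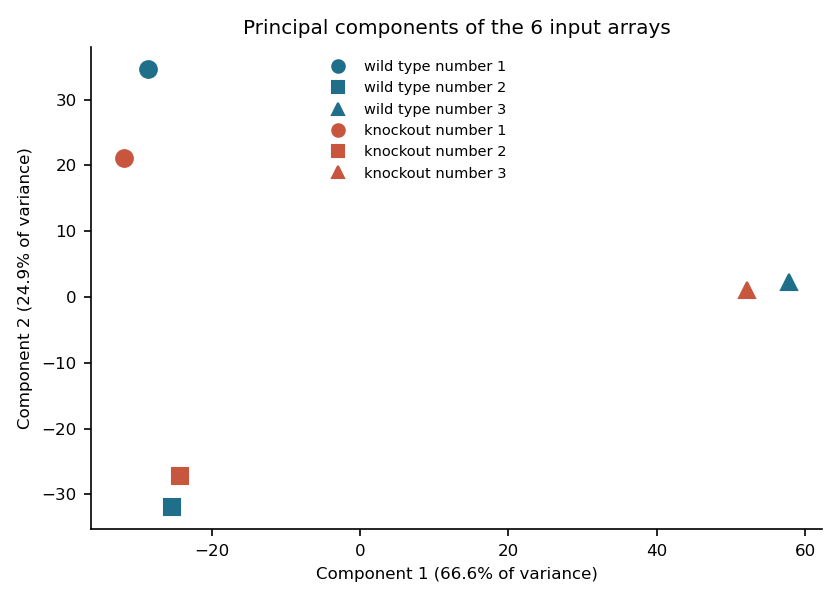
Scores of the 6 input arrays on the first (horizontal axis, 66.6% of variance) and second (vertical axis, 24.9%) principal components of the 9497 tested genes. Colour gives genotype and marker shape gives replicate number, and the wild-type and knockout arrays of each number lie side by side.

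Between genotypes no gene passed. At an adjusted p under 0.05 by limma, 0 of 9497 genes were higher in knockout and 0 were lower (0% in each direction), and the smallest adjusted p was 0.783. At an unadjusted p under 0.05, 293 genes (3.09%) were higher and 265 (2.79%) lower, together 5.88% of those tested. All 3 knockout arrays lay above all 3 wild-type arrays in 62 genes (0.653%) and below them in 90 (0.948%). Without the replicate block 0 genes passed as well, with 7 genes at an unadjusted p under 0.05.

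The differences were small for most genes. The median difference was 0.02 and the median size of a difference, regardless of sign, was 0.10. For 95% of genes the size was at most 0.36. The median half-width of a gene's 95% interval was 0.29, a 1.22-fold difference. The interval lay within 2-fold of no difference for 9319 genes (98.1%) and within 1.5-fold for 7957 genes (83.8%). The knockout value exceeded its wild-type partner in all 3 pairs for 1537 genes (16.2%) and fell short of it in all 3 for 1234 (13%). The fitted difference exceeded 2-fold in 12 genes, 4 higher and 8 lower in knockout.

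**Figure D2:**
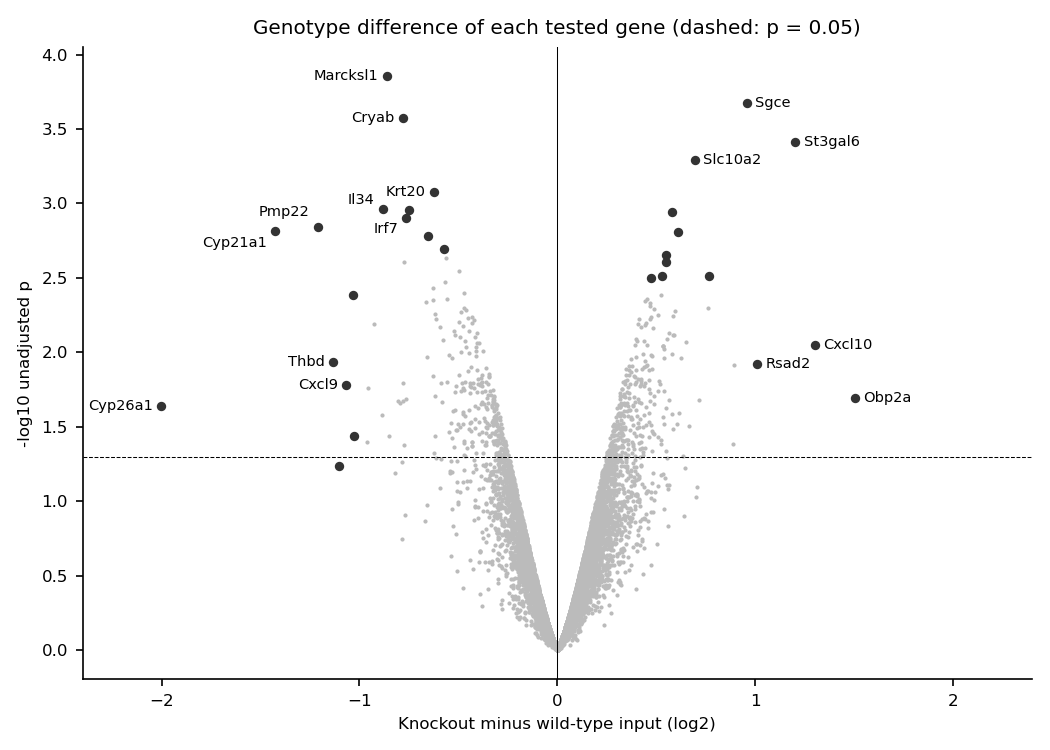
Fitted knockout minus wild-type difference (horizontal axis, log2) against the unadjusted p (vertical axis, −log10) of each tested gene. Dark points are the genes with the smallest p in each direction and those with a difference over 2-fold. The 558 genes above the dashed line have an unadjusted p under 0.05, and none passes after adjustment.

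The genes with the smallest p in each direction are named next. None passed, and each had an adjusted p of 0.783. Among those lower in knockout, Marcksl1, which encodes an actin-regulating relative of the protein kinase C substrate MARCKS, had the smallest p of any gene (0.000139). Its signal was 10.01, 6.84 and 9.87 in wild type against 9.13, 5.92 and 9.08 in knockout. The pair differences were alike, at -0.88, -0.92 and -0.79, although number 2 lay about 3 units below the other numbers in both genotypes. Cryab, which encodes the small heat shock protein αB-crystallin, was at 8.04, 7.99 and 7.98 in wild type against 7.16, 7.22 and 7.28 in knockout. Its groups did not overlap, its 6 arrays showed hardly any difference between numbers, and the fitted difference was -0.78 ± 0.10 (SE).

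Cyp21a1, the steroid 21-hydroxylase known from the adrenal cortex, had the largest difference among these genes, -1.43 ± 0.26 (SE), a 0.37-fold level. The wild-type arrays read 8.33, 4.87 and 9.58 and the knockout arrays 6.16, 4.18 and 8.15. The knockout was lower in every pair, and the groups overlapped because number 2 was low in both genotypes. Pmp22, a membrane protein of peripheral myelin, read 6.36, 5.40 and 9.42 against 4.50, 4.33 and 8.73, a difference of -1.21 ± 0.22 (SE). Il34, a ligand of the macrophage receptor CSF1R, read 5.87, 6.34 and 7.60 against 5.39, 5.28 and 6.50. Irf7, a transcription factor of the interferon response, read 8.42, 7.30 and 8.40 against 7.34, 6.72 and 7.76. In each of these genes every knockout array lay below its own partner but not below every wild-type array. The actin-capping protein gene Capg (-0.75), the keratin gene Krt20 (-0.62), the LIM-domain protein gene Wtip (-0.65) and Tsks (-0.57), named for a testis kinase substrate, completed the lower genes. The knockout mean of Tsks, 5.40, lay below the level required of a gene's mean, and its wild-type mean was 5.97.

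Among the genes higher in knockout, Sgce, which encodes ε-sarcoglycan of the dystrophin-associated complex, had the smallest p (0.000213). It read 7.66, 7.82 and 9.01 in wild type against 8.38, 8.95 and 10.04 in knockout, a difference of 0.96 ± 0.12 (SE). St3gal6, a sialyltransferase of the Golgi, had the largest difference, 1.20 ± 0.17 (SE), a 2.30-fold level. It read 4.63, 5.0 and 5.06 in wild type, below the level required of a gene's mean, and 6.32, 5.91 and 6.07 in knockout, and the groups did not overlap. Slc10a2, the sodium-dependent bile acid transporter of ileum and bile duct, read 3.87, 6.77 and 4.77 against 4.48, 7.55 and 5.46. Its pair differences of 0.61, 0.79 and 0.69 were alike while its level differed between numbers by 2.99. Its wild-type mean, 5.14, also lay below the level required of a gene's mean, and its knockout mean was 5.83.

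Taf7, a subunit of the general transcription factor TFIID, read 5.21, 5.72 and 5.33 against 5.75, 6.32 and 5.93. Mtmr7, a phosphoinositide phosphatase of the myotubularin family, read 6.82, 6.81 and 6.45 against 7.29, 7.23 and 7.14. For both genes every knockout array exceeded every wild-type array. The wild-type mean of Taf7, 5.42, lay just below the level required of a gene's mean, and its knockout mean was 6.00. Pair by pair the knockout was also higher for Galnt7 (0.61) and Alg13 (0.55), which act in protein O- and N-glycosylation, Bdh2 (0.55), a cytosolic hydroxybutyrate dehydrogenase, the zinc finger gene Zfp229 (0.77) and the SLAM-family receptor gene Slamf9 (0.47). Over the alternative fits all 20 of these genes kept their direction, with adjusted p-values from 0.0972 to 1.0.

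**Figure D3:**
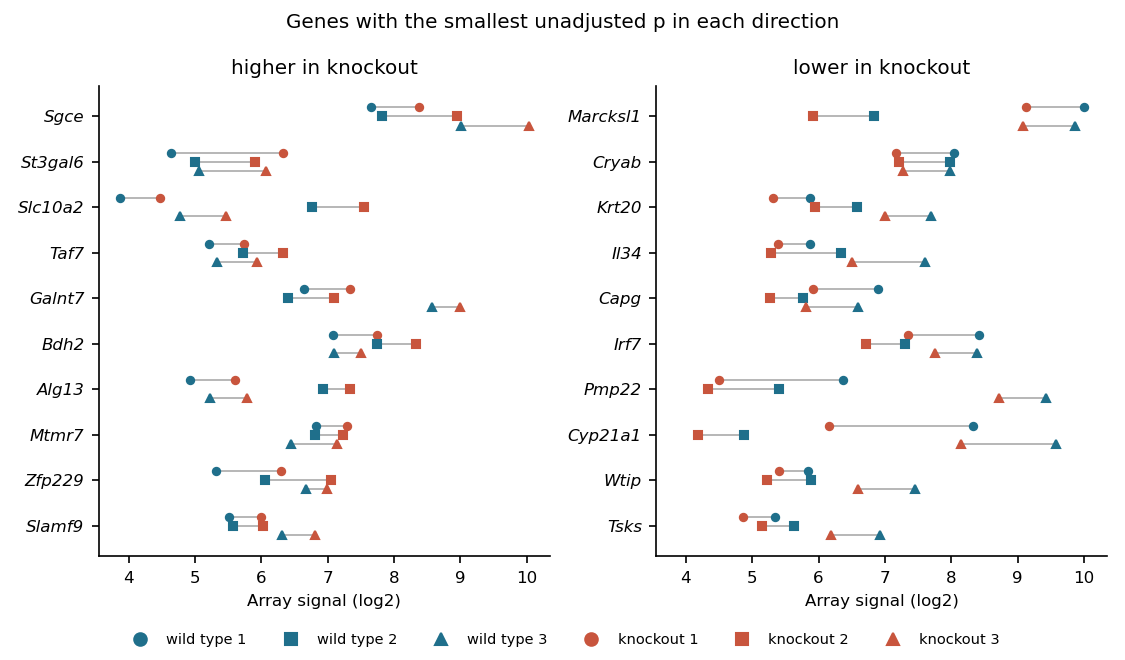
Array signal (log2, horizontal axis) of the 10 genes with the smallest unadjusted p in each direction, higher in knockout on the left and lower on the right. Each line joins the wild-type and knockout arrays of a replicate number. All lines of a gene run the same way, and for Cryab, St3gal6, Taf7 and Mtmr7 the genotypes do not overlap.

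The largest fitted difference of all belonged to Cyp26a1, the cytochrome P450 that hydroxylates and inactivates retinoic acid. It was picked out after its values were seen, as were the other genes with a difference over 2-fold. The 250 bases before its annotated start, read from the RefSeq promoter table on the plus strand of GRCm38.p6 (chr19:37697558-37697807), are shown because retinoic acid receptors, as textbook background, act on this gene through direct repeats. The capitals mark the only match, on the reverse strand, to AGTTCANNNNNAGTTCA, a direct repeat with 5 bases between. The match begins 32 bases before the start.
Cyp26a1: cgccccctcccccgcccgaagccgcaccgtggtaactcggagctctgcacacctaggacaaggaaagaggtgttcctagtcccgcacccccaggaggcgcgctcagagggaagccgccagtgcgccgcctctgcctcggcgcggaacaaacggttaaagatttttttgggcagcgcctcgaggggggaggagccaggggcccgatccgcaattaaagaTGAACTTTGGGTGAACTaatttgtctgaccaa
The search covered both strands of 32851 promoter windows that ran from 250 bases before to 50 bases after a start. Of these windows 8 (0.0244%) held this exact spelling. They belonged to 8 genes, of which 2 were tested. The other tested one, Blvrb, which encodes biliverdin reductase B, had a difference of 0.43 (unadjusted p = 0.0150) in the direction opposite to that of Cyp26a1. The spelling searched is the one present in Cyp26a1, so its match there is no test. Other spellings of such a repeat were not searched, and the share holds for this spelling only. A match is a run of letters and does not show that a factor was bound there.

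Cyp26a1 read 6.85, 9.28 and 9.66 in wild type against 7.15, 6.20 and 6.45 in knockout. In pair 1 the genotypes were close, with a difference of 0.29, and in pairs 2 and 3 the knockout was lower by -3.08 and -3.22. The knockout arrays thus stood near the level of the number 1 pair, and only wild-type inputs 2 and 3 were high. The fitted difference was -2.00 ± 0.66 (SE; 95% interval -3.62 to -0.39; unadjusted p = 0.0229), and it did not pass. Without pair 1 the difference was -3.15 with an adjusted p of 0.00109 by limma, the only gene called in any alternative fit. That fit had 1 residual degree of freedom per gene.

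Among the other genes lower by more than 2-fold, Srgn, a proteoglycan core protein of blood cell granules, followed the same layout. It read 6.18, 8.80 and 7.87 in wild type against 6.61, 6.48 and 6.45 in knockout, with differences of 0.43, -2.33 and -1.42. Ivl, which encodes the cornified envelope protein involucrin, likewise had differences of 0.24, -1.93 and -1.40. Both, like Cyp26a1, were lower in knockout in pairs 2 and 3 only. Thbd, the endothelial anticoagulant thrombomodulin, had differences of -1.88, -1.42 and -0.11, and Serpina5, a protease inhibitor that acts on activated protein C, -1.60, -0.35 and -1.15. Cxcl9, an interferon-induced chemokine gene, had differences of -0.44, -2.15 and -0.61 and did not overlap between genotypes.

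Of the genes higher by more than 2-fold besides St3gal6, the interferon-induced chemokine gene Cxcl10 read 7.18, 6.85 and 8.13 in wild type against 9.55, 8.02 and 8.51 in knockout. Its difference ran from 2.37 in pair 1 to 0.38 in pair 3. Rsad2, which encodes the antiviral protein viperin, had differences of 1.73, 1.18 and 0.13. Both genes were therefore higher chiefly in pairs 1 and 2. Obp2a, an odorant-binding protein of the lipocalin family, had 1.88, -0.08 and 2.72. None of these passed.

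Cxcl9 and Cxcl10 lie near Cnot6l on chromosome 5. A knockout allele is inherited with its neighbouring region, so the 15 nearest array genes on each side were described whatever their values. Of these 30 genes 19 were tested, 9 had a positive difference, and the median was -0.01 beside 0.02 over all genes. At an unadjusted p under 0.05 there were 1 higher (Cxcl10, 1.30) and 2 lower (Cxcl9, -1.07, and the cyclin gene Ccni, -0.34), beside 3.09% and 2.79% of all genes. The genes next to Cnot6l, Cxcl13 and Mrpl1, had -0.13 and 0.07, and the cyclin gene Ccng2 had -0.21.

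The CCR4-NOT genes did not differ between genotypes beyond the spread between pairs. Of 13 tested subunits and cofactors 7 were positive, the median was 0.01, and 0 reached even an unadjusted p under 0.05. Cnot6, the close relative of Cnot6l, read 8.85, 9.12 and 8.90 in wild type against 9.10, 9.11 and 8.71 in knockout, a difference of 0.01 that turned to -0.000960 after quantile normalization and to -0.10 without pair 1. The structural subunit gene Cnot2 had 0.21, the deadenylase gene Cnot7 had -0.17 and Tob1, an antiproliferative protein that recruits the complex, had 0.21. Of 28 genes for other mRNA decay factors 20 were positive (median 0.04) and 0 had an unadjusted p under 0.05. The largest values were those of the 5′ exonuclease Xrn1 (0.39), the exosome nuclease Dis3 (0.32), the nonsense-mediated decay factor Upf2 (0.25) and Exosc3 (0.19).

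Short-lived mRNAs were looked at because deadenylation is a main route of their decay. Of 13 tested AU-rich inflammatory mRNAs 9 were positive, with a median of 0.16 and pair medians of 0.08, 0.33 and 0.0024. Cxcl10 alone had an unadjusted p under 0.05. Ccl2, a monocyte chemokine, had 0.40, the neutrophil chemokine gene Cxcl2 0.32 and the adhesion molecule gene Icam1 0.30. Of 30 immediate early genes 18 were positive with a median of 0.01. Fos, which encodes a subunit of the AP-1 transcription factor, read 7.64, 8.88 and 9.47 against 8.22, 9.14 and 10.41, higher in knockout in each pair (0.59, unadjusted p = 0.00762). Dusp6, a phosphatase of the kinase ERK, had -0.33, Sgk1 0.40 and Atf3 0.29. Fgf21, a liver hormone, read 7.49, 7.39 and 6.94 in wild type against 7.60, 7.41 and 6.98 in knockout, a difference of 0.06 with a 95% interval of -0.19 to 0.31.

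Genes of secreted plasma proteins stood mostly on the lower side in knockout. Of 22 tested members 17 were negative, with a median of -0.13 and pair medians of -0.19, -0.14 and -0.23. None passed, and 5 were lower at an unadjusted p under 0.05 beside 2.79% of all genes. Plg, the fibrinolytic zymogen plasminogen, read 8.61, 10.74 and 9.50 against 8.36, 9.98 and 8.94. Cfb, complement factor B, read 11.32, 11.23 and 12.98 against 10.52, 10.94 and 12.52. For both genes the knockout was lower in each pair and the groups overlapped. The cell-adhesive protein gene Vtn (-0.42) and the apolipoprotein gene Apoa2 (-0.41) were also lower in each pair.

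Acute phase genes, which hepatocytes turn up in inflammation, were similar, with 16 of 23 negative, a median of -0.09. At an unadjusted p under 0.05 there were 6 lower members, beside 2.79% of all genes. The serum amyloid A genes led the list. Saa3 read 9.81, 11.04 and 12.36 against 9.44, 10.05 and 11.89. Saa2 had a difference of -0.85 that came chiefly from pair 2 (-0.04, -1.84 and -0.67), Saa1 had -0.42, and Orm2, an α1-acid glycoprotein, had -0.48. Without single pairs the list's median ran from -0.21 to -0.07. Hepatokines, hormones secreted by hepatocytes, had 14 of 21 members negative and a median of -0.04. The insulin-like growth factor binding protein genes Igfbp3 (-0.54), Igfbp2 (-0.53) and Igfbp4 (-0.32) and the iron hormone hepcidin (Hamp, -0.38) had its largest values. Hamp had pair differences of 1.30, -1.85 and -0.59 and so no common direction.

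Genes of the translation and respiration machinery stood on the higher side by small amounts. Of 50 listed cytosolic ribosomal protein genes only 13 were on the array, and 12 were tested. Among those tested 11 were positive, with a median of 0.16 and pair medians of 0.18, 0.05 and 0.20. Of the 12, 2 were higher at an unadjusted p under 0.05, beside 3.09% of all genes. Rpl15 read 8.54, 9.45 and 7.59 against 8.95, 9.84 and 8.19, a difference of 0.47 ± 0.11 (SE). Rps6 had 0.32, Rpl14 0.29 and Rps3 0.20. Of 48 respiratory chain subunit genes 38 were positive, with a median of 0.09, and 0 had an unadjusted p under 0.05. The pair medians were 0.0021, 0.08 and 0.14, so pair 1 hardly shared the direction. Atp5o of the ATP synthase (0.23) and Ndufs8 (0.20), Ndufs5 (0.19) and Ndufs1 (0.19) of complex I had the largest values. Over all genes 54% were positive with a median of 0.02, and after quantile normalization 51.1% were positive.

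Interferon and antigen presentation genes were split. Of 18 tested members 13 were negative (median -0.05). At an unadjusted p under 0.05, 2 were higher and 3 were lower, beside 3.09% and 2.79% of all genes. Rsad2 and Ifit1 (0.54), which restrict viral replication, were on the higher side together with Ifit2 (0.40), and Irf7 was on the lower side. Genes of the integrated stress and unfolded protein responses had a median of 0.08 with 16 of 25 positive. Dnajc3, an inhibitor of the kinase PERK (0.33), and Chac1, a glutathione-degrading enzyme (0.32), had an unadjusted p under 0.05. Asns, asparagine synthetase, had 0.25 and Edem1, of endoplasmic reticulum degradation, had -0.17. Of 17 heat shock and oxidative stress genes 11 were positive with a median of 0.18, but the pair medians were -0.16, 0.06 and 0.29, and the median was 0.01 without pair 2 and -0.02 without pair 3. Hspa1a and Hspa1b, the inducible HSP70 genes, had 0.43 and 0.32, but in each the difference came from pair 3 (1.72 and 1.41), and Nqo1 had 0.26 and Hspe1 0.26.

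Genes of glucose metabolism had a median of 0.0050 over 19 members, which was -0.01 after quantile normalization and ran from -0.05 to 0.07 without single pairs. The gluconeogenic enzyme genes Fbp1 and G6pc were at the lower end. Fbp1 read 10.98, 11.30 and 10.26 against 10.69, 10.86 and 9.51, lower in knockout in each pair (-0.49, unadjusted p = 0.00790). G6pc had differences of -1.02, -0.67 and 0.03. Ppargc1a (0.34) and Pfkfb3 (-0.29) followed. Periportal genes, which mark hepatocytes near the portal vein, had a median of -0.11 with 8 of 13 negative and included Fbp1 and G6pc besides Serpina12 (-0.52) and Uroc1 (-0.45). Pericentral genes had a median of 0.05 over 14 members, with the P450 gene Cyp2c50 at -0.48, the aryl hydrocarbon receptor gene Ahr at 0.46, Cyp2e1 at -0.37 and Gulo at -0.28.

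Genes of lipid and bile acid metabolism showed no common direction. Cholesterol synthesis and uptake genes had 12 of 15 positive and a median of 0.10, with 0.41 for Cyp51, 0.23 for Sqle, 0.20 for Insig2 and 0.20 for Fdft1. Fatty acid and triglyceride synthesis genes had a median of -0.01 over 21 members. The glucose-responsive transcription factor gene Mlxipl, which encodes ChREBP, read 9.83, 10.09 and 11.11 against 9.47, 9.78 and 10.01 (-0.59, unadjusted p = 0.0160), whereas the elongase gene Elovl6 had 0.37. The lipid droplet gene Cidec had -0.46 and Lpin1 -0.31. Fatty acid oxidation and ketogenesis genes had a median of 0.04 over 24 members, with the thiolase gene Acaa1b at -0.62, the ω-hydroxylase genes Cyp4a10 at -0.49 and Cyp4a14 at -0.42, and the bifunctional peroxisomal enzyme gene Ehhadh at 0.39. Bile acid genes had a median of 0.10 over 12 members. The conjugation enzyme gene Slc27a5 (-0.41) and the repressor gene Nr0b2 (-0.33) were lower in each pair, and the phospholipid exporter gene Abcb4 (0.28) and the FGF receptor gene Fgfr4 (-0.21) had pair differences of mixed sign.

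The remaining lists had medians from -0.10 to 0.10, beside 0.02 over all genes. The outermost, of amino acid and cell cycle genes, lay about as far out as those of respiratory chain (0.09) and acute phase (-0.09) genes. Amino acid and urea cycle enzyme genes had 17 of 23 positive and a median of 0.10, with the tryptophan-degrading enzyme gene Tdo2 at 0.54 and Hgd at -0.47. Xenobiotic P450 genes had a median of -0.0044 over 15 members and growth hormone and sex-biased liver genes -0.06 over 12, with Nudt7 at 0.32 and Cyp2d9 at -0.30. Nuclear receptors and liver transcription factors had a median of 0.01 over 18 members, with the xenobiotic receptor gene Nr1i2 at -0.31 and the glucocorticoid receptor gene Nr3c1 at 0.23. Circadian clock genes had a median of -0.01 over 12 members, with Clock at 0.34. Cell cycle genes had 14 of 18 negative and a median of -0.10, with pair medians of -0.56, -0.08 and 0.25. Dedifferentiation and cytoskeleton genes had 0.06 over 19 members, with Lgals3 at 0.35, and common reference genes 0.05 over 9, with Gusb at 0.17. In none of these lists did a member pass.

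Tested markers of endothelial, stellate and bile duct cells lay mostly on the lower side in knockout, and 3 of the 16 had an unadjusted p under 0.05, beside 2.79% of all genes on that side. The pairs did not share this direction throughout. Fewer cells of a type and less RNA per cell cannot be told apart in such samples. Of 14 sinusoidal endothelial markers 7 were tested, 6 of them with negative differences (median -0.13, pair medians 0.21, -0.39 and -0.42). The hyaluronan receptor gene Lyve1 read 4.63, 6.92 and 6.49 against 4.57, 5.40 and 5.68, and the TGF-β co-receptor gene Eng had -0.33. All 6 tested stellate cell and fibroblast markers of 14 were negative (median -0.20, pair medians -0.18, -0.62 and 0.08, and -0.0028 without pair 2), led by Dcn (-0.44) and Col3a1 (-0.35), and the 3 tested cholangiocyte markers Cd24a (-0.46), Krt19 (-0.24) and Sox9 (-0.20) were negative, with a median of -0.24 that was -0.55 without pair 1 and -0.09 without pair 2. The 2 tested macrophage markers had -0.24 (Csf1r) and 0.13 (Cd68). The single tested T, NK and B cell marker, Cd3e, had 0.07, the neutrophil marker Cxcr2 0.26, and 2 of 3 erythroid and platelet markers were negative (median -0.12), with Alas2 at -0.31. Of the 12 tested hepatocyte markers 8 were negative (median -0.07). Summed over all 14 markers, tested or not, the log2 of the endothelial signal was 9.22 to 10.34 in wild type and 9.27 to 10.0 in knockout, and that of the stellate cell signal 9.73 to 11.89 and 9.55 to 11.88. Of the 14 sinusoidal endothelial markers 10 averaged below the array median, and the highest averaged 7.09. Among the low ones, Clec4g and Dnase1l3 lay at 4.15 to 4.61 and 3.55 to 3.81 in all 6 arrays. Thbd and Srgn above are known from endothelial and blood cells, and the part of other cells in their values was not tested.

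Between replicate numbers most genes differed. By a moderated F test over the numbers, with genotype in the model, 6585 of 9497 genes (69.3%) passed an adjusted p under 0.05. The median range of the 3 number means was 0.76 (1.69-fold). It exceeded 2-fold in 3118 genes (32.8%), 4-fold in 499 and 16-fold in 34. Of the genes that passed, 3333 (50.6%) were lowest in number 3, against 1797 (27.3%) in number 1 and 1455 (22.1%) in number 2. Without number 3 the count was 1430.

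Control probe sets also differed between numbers. The bacterial poly-A transcripts added before labelling averaged 4.94 and 4.90 in wild-type and knockout input 1, and 8.61 to 8.89 in the other arrays. For Gapdh the gap from the 5′ to the 3′ probe set, which widens as RNA is degraded or incompletely copied, was 0.40 and 0.27 in number 3 and -0.01 to 0.07 in the others. That of β-actin was 1.05 and 0.87 in number 3 and 0.28 to 0.61 in the others. These values moved with the numbers in both genotypes. The same gap for the transferrin receptor did not do so throughout. It was 1.76, 3.67 and 4.58 in wild-type inputs 1, 2 and 3 and 1.98, 1.61 and 3.77 in the knockout inputs, so that within pair 2 the gap was wider in wild type. The part of these values in the differences between genotypes was not tested, and their part in the differences between numbers was not tested. What the arrays of a number shared, and what set the numbers apart, was not given in the sources used here.

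Cyp1a1, a P450 induced through the aryl hydrocarbon receptor, had the widest range of any gene tested. It read 13.60 in wild type and 13.22 in knockout in number 1, 5.55 and 5.85 in number 2, and 5.85 and 7.23 in number 3, a 209-fold range of number means. Cyp1a2, its relative with the same inducers, averaged 12.65, 9.24 and 7.58 in numbers 1, 2 and 3. Both were highest in number 1 in both genotypes. Other genes of the same receptor pathway did not all share this pattern. Nqo1, named after its values were seen, was highest in number 1 (9.99 and 9.39, against 7.14 to 8.10), whereas Cyp1b1 and Ahrr lay at 2.86 to 3.89 in all 6 arrays and Tiparp was lowest in wild-type input 1.

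Amino acid enzymes were low in number 3. Arg1, the arginase of the urea cycle, read 10.15 and 11.40 in number 1, 12.54 and 11.48 in number 2, and 4.37 and 5.38 in number 3, a 141-fold range. Gnmt, which methylates glycine, averaged 9.58, 12.31 and 7.17, and Bhmt, which remethylates homocysteine, 11.36, 10.84 and 6.42. Gstm3, a glutathione transferase, averaged 12.95, 11.99 and 7.51. Each of these was lowest in number 3 in both genotypes. Of 23 amino acid and urea cycle genes 21 passed the F test, beside 69.3% of all genes. Of the 23, 19 were lowest in number 3, beside 4543 of all 9497 genes. The list's median there lay -0.76 from the mean of the numbers.

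Other genes were high in number 3. Mki67, a proliferation marker, averaged 5.83, 5.47 and 11.21, the secreted matrix protein gene Fbln2 5.18, 4.51 and 10.39, and Igfbp3 7.74, 6.88 and 12.18. Atp2b1, a plasma membrane calcium pump, averaged 4.51, 8.20 and 9.86 and was thus low in number 1. Of the 10 genes with the widest range, Arg1, Mki67, Igfbp3 and Bhmt no longer passed between numbers 1 and 2 alone, with ranges of 1.23, 0.37, 0.85 and 0.53.

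**Figure D4:**
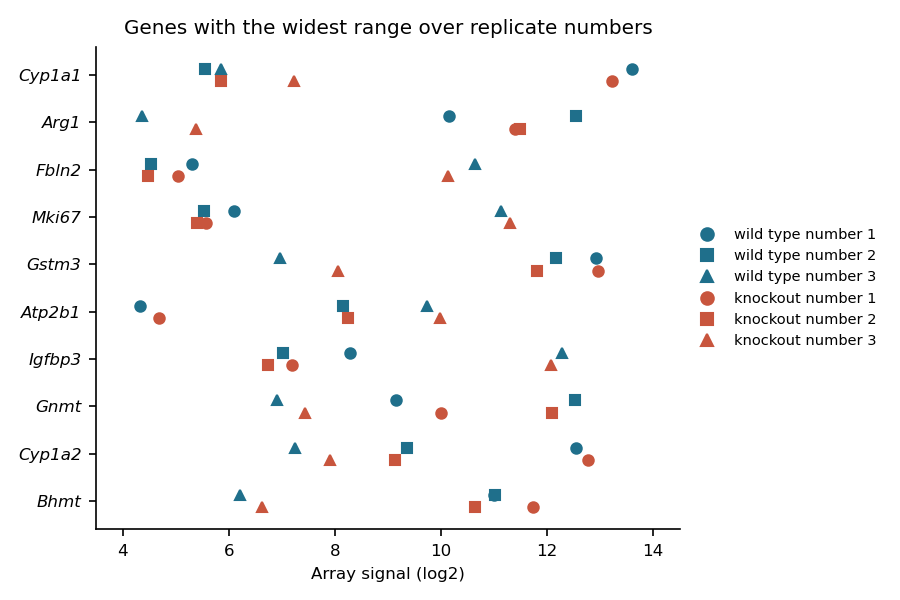
Array signal (log2, horizontal axis) in the 6 input arrays for the 10 genes with the widest range of replicate number means. Colour gives genotype and marker shape gives number. Cyp1a1 and Cyp1a2 are highest in number 1, Arg1, Gstm3, Gnmt, Cyp1a2 and Bhmt are lowest in number 3, and Fbln2, Mki67, Atp2b1 and Igfbp3 are highest in number 3.

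Whole groups of genes followed the numbers. All 15 xenobiotic P450 genes passed the F test, beside 69.3% of all genes. Of the 15, 11 were lowest in number 3, beside 4543 of all 9497 genes. The list's median deviations from the mean of the numbers were 0.21, 0.90 and -1.18. Cyp2b10, a phenobarbital-inducible P450, read 10.94 and 11.72, 12.69 and 12.61, and 8.46 and 8.90 in numbers 1, 2 and 3. Cyp2e1, which oxidises ethanol, read 10.27 and 10.60, 13.27 and 12.84, and 9.61 and 8.59. All 12 ribosomal protein genes and 41 of 48 respiratory chain genes were lowest in number 3, beside the same 4543 of 9497. The medians of these 2 lists there were -0.50 and -0.31. Heat shock and oxidative stress genes (-0.52), glucose and insulin genes (-0.44), fatty acid oxidation genes (-0.43), pericentral genes (-0.42) and periportal genes (-0.41) were also low there, beside -0.09 over all genes.

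AU-rich inflammatory mRNAs (0.79), cell cycle genes (0.54), hepatokines (0.50), stress response genes (0.40), acute phase genes (0.38), interferon genes (0.37) and fatty acid synthesis genes (0.37) were high in number 3. Of 18 cell cycle genes 17 (94.4%) passed, beside 69.3% of all genes, and the cyclin gene Ccnb2 read 5.88 and 3.69, 4.51 and 4.12, and 8.03 and 8.29. Markers of some other cells were high there too. Tested stellate cell and fibroblast markers had a median of 1.0 and endothelial markers 0.59 in number 3, with Col3a1, a fibrillar collagen gene, at 5.50 and 4.68, 5.73 and 4.86, and 9.34 and 9.98. The 3 tested bile duct markers had 0.54, whereas macrophage markers had -0.13, the T, NK and B cell marker -0.07, the neutrophil marker 0.06 and erythroid and platelet markers 0.01, beside -0.09 over all genes. All 7 tested endothelial markers and 4 of the 6 stellate cell markers (66.7%) passed the F test, beside 69.3% of all genes. Summed over all 14 stellate cell markers, tested or not, the log2 of the signal was 11.89 and 11.88 in number 3 and 9.55 to 10.25 in the other arrays. The part of these cells in the differences between numbers was not tested.

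**Figure D5:**
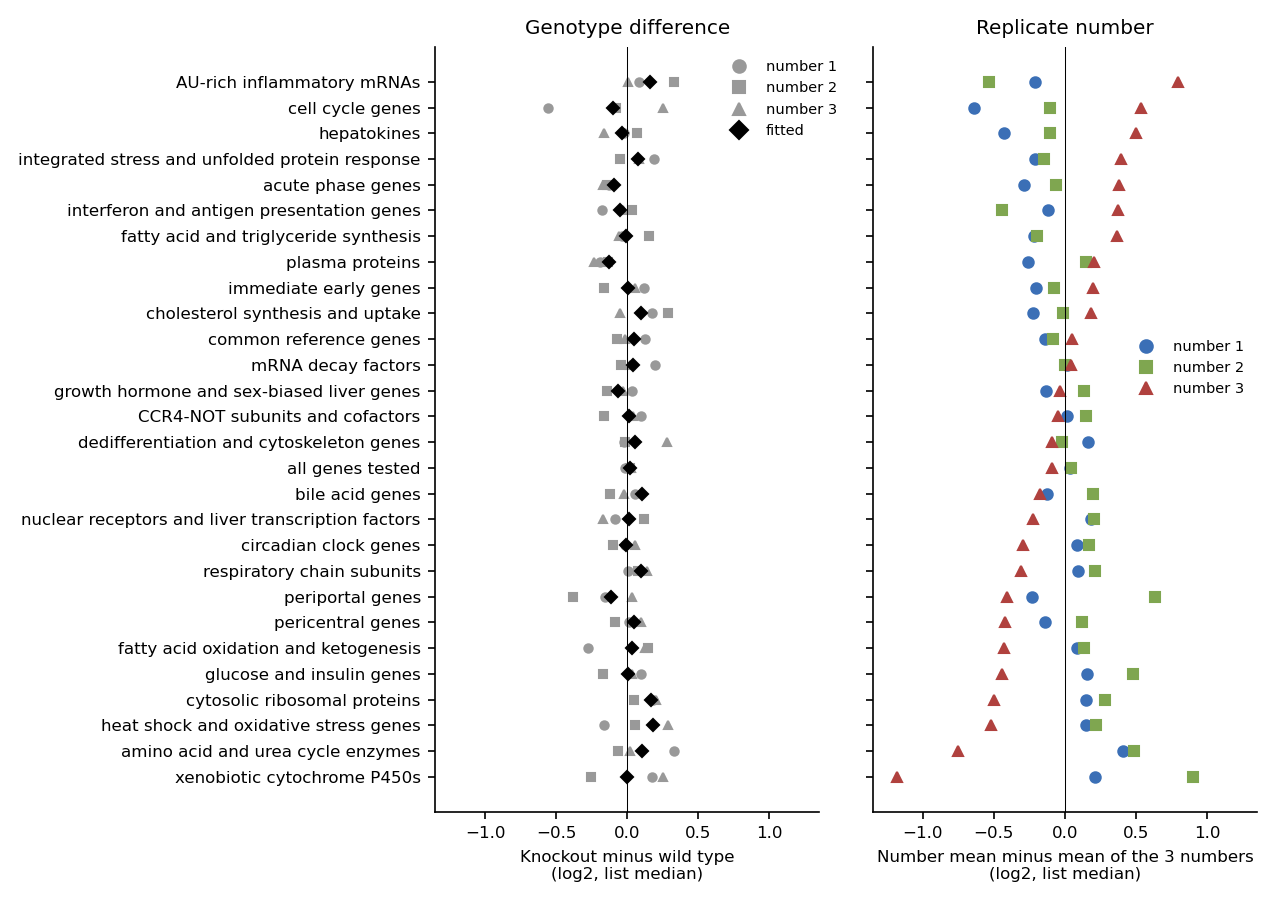
Median over the tested members of each pathway list and over all genes tested, in log2 units, with the cell type marker lists left out. Left, knockout minus wild type in each replicate number (grey) and as fitted (black diamonds), where the fitted medians drawn lie between -0.13 and 0.18. Right, deviation of each number's mean from the mean of the 3 numbers, where the medians drawn run from -1.18 to 0.90.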

How the data were processed

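Per the labels, RNA of 6 input samples was hybridised to Affymetrix Mouse Genome 430 2.0 arrays. Their range shows that the deposited values are log2 signals, with 1 value per probe set and array. The background correction, normalization and summarisation behind them were not given in the sources used here. Probe sets took their gene from the platform annotation, and 15752 were matched by Entrez identifier to the RefSeq gene table of GRCm38.p6. Arrays have no read depth, so their number limits the precision.

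Differences were fitted on the deposited log2 values with limma 3.58.1 in R 4.3.3 (lmFit and eBayes, two-sided). The model had the replicate number as a fixed block and then genotype, with 2 residual and 4.13 prior degrees of freedom, and p-values were adjusted over the 9497 tested genes by Benjamini-Hochberg. The block was in the fit because the comparison is paired by number. In a check, wild-type and knockout inputs of the same number deviated together from their group means, with correlations across genes of 0.828, 0.853 and 0.936, against -0.710 to 0.0668 for different numbers. The titles give the numbers, and a shared day or litter is not stated. statmod 1.5.0 gave the random block, and Python 3.11.15 with matplotlib 3.10.9 drew the figures. The fit was tested on simulated data.

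The comparison, gene lists and tests were chosen with earlier results of these data known. The named genes are the 10 with the smallest p in each direction, where the rule would have taken genes that passed had there been any, the 10 with the widest range over numbers, up to 4 members of each list with the largest genotype difference, and Cnot6l, Cnot6 and Fgf21. Any other gene named, including markers, was chosen after its values were seen. Genes with only a clone name were counted, 210 of those tested, and not named. Lists are described by counts and medians without a test. Alternatives changed the block, the arrays in the fit, normalization, the filter and the variance model, or left out each number.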

Additional observations from a re-analysis of the deposited data

How the results depend on the processing

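The count of 0 genes called between genotypes stayed 0 in each alternative except without replicate 1, where 1 gene was called, so that leaving out single numbers gave 0 to 1. The count at an unadjusted p under 0.05 (558) was 7 with no replicate block, 609 with a random replicate block (consensus correlation 0.882), 5 with all 12 arrays and no block, and 125 with all 12 arrays and the block within each fraction. It was 925 of 15780 genes (5.86%) without a filter and 361 of 6328 (5.7%) with a filter at the 60th percentile, close to the 5.88% of the genes tested here, and 292 to 753 without single numbers. The count of genes that differed between numbers (6585) was 1430 to 5846 without single numbers, the lowest without number 3, and 4874 to 7561 under the other alternatives. The sign turned for Cnot6 after quantile normalization (-0.000960) and without number 1, and for Cnot6l without number 1. Leaving out single numbers gave -0.10 to 0.12 for Cnot6 and -0.023 to 0.46 for Cnot6l. The other 258 values of named genes kept their sign. Many of them could not turn, because a change of block, filter or variance model leaves a gene's difference as it was. Nor can leaving out a number turn a gene whose 3 pair differences share a sign. Of the list medians 165 moved by less than the standard deviation of the list's 3 pair medians while 10 moved by more. Leaving out 1 of 3 pairs moves a mean by less than that, so a small move was largely set in advance. Without single numbers the sign of the median turned in 18 of 35 lists, and under another scaling in 1, the glucose and insulin genes. Quantile normalization moved the median difference of all genes from 0.02 to 0.0046. With 3 arrays a group, and 2 residual degrees of freedom, differences under about 1.22-fold lie within the median interval of a gene. That interval is not adjusted for the number of genes tested, and larger differences did not pass either. St3gal6, 2.30-fold higher in knockout input, and Marcksl1, 1.82-fold lower, each had an adjusted p of 0.783 by limma. The count of 0 genes called therefore does not show that differences stayed under 1.22-fold.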

Other observations

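The precipitate arrays carried the same genotype and number labels as the inputs and were taken as a second array of each preparation. They are separate arrays but not independent cells, and an antibody stands between the preparation and the array. Cyp26a1 read 5.47, 9.74 and 9.61 in the wild-type precipitates and 5.84, 5.11 and 5.69 in the knockout precipitates of numbers 1, 2 and 3. As in the inputs, only the wild-type arrays of numbers 2 and 3 were high, and the pair differences were 0.37, -4.62 and -3.92. Marcksl1 had pair differences of -0.40, -1.23 and -0.76, Krt20 -1.30, -0.53 and -1.48, Il34 -0.22, -0.88 and -1.67, and Thbd -3.19, -1.17 and -1.19. These 4, picked after their values were seen, were lower in each knockout precipitate, as in each knockout input. Of the 20 genes with the smallest p, 5 had the direction of the inputs in every precipitate pair and 16 had it in the mean of the pairs. The same counts were not made over all genes, so nothing is read from them. Among the 20, Cyp21a1 had -3.0, 1.42 and -1.20, Sgce -0.33, 1.37 and 0.89, and Capg 0.63, -1.61 and 1.48. St3gal6, 2.30-fold higher in knockout input, had -0.46, -0.42 and -0.07 in the precipitates, and Cxcl10 had 1.72, 0.24 and -1.07.

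Genes with a wide range over numbers in the inputs were looked up as well, and the following were highest in the same number in the precipitates. Cyp1a1 averaged 13.29, 5.77 and 6.83 in the precipitates of numbers 1, 2 and 3, Arg1 9.54, 10.95 and 5.84, and Mki67 5.96, 6.32 and 11.74. The order of the lower numbers of Mki67 was the reverse of that in the inputs.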
